A study of Arabidopsis thaliana with 12 samples.

Results

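The genes described here are 39 Arabidopsis loci of the wall-loosening families, 16 alpha-expansins (EXPA) and 23 xyloglucan endotransglucosylase/hydrolases (XTH). They were chosen by locus from a list of the families that leaves out the members known from root hairs, and no measured value entered that rule. Earlier results of these data were known when the list was made. All 39 had a probe on the array, all 39 were well above background on all 12 arrays, and all 39 entered a test over 23537 genes. The seedlings were whole wild-type Col-0 plants raised on agar medium that held 3-bromo-7-nitroindazole (3B7N), 3-bromoindazole (3BRO) or 7-nitroindazole (7NIT) at 2.5 µM, or the solvent dimethyl sulfoxide (DMSO). Each treatment had 3 single-colour Agilent arrays, and every seedling had 3 days in the dark at 4 °C and then 4 days of continuous blue light at 10 µmol m-2 s-1. 3B7N carries both a bromo and a nitro group on the indazole ring, and 3BRO and 7NIT carry one of them each. Nothing in the labels says whether replicate arrays stand for independently grown seedlings. The p-values below therefore set each difference against the scatter of these 12 samples within treatments, a scatter that may be only technical. Seedlings of the cry1cry2 genotype, mentioned in the series' design, were not analysed here.

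Plant cells grow by letting turgor stretch a wall in which cellulose microfibrils are tethered by xyloglucan. Expansins loosen the contacts between wall polymers without cutting them, and act best at acid pH. XTH enzymes cut a xyloglucan chain and join the new end to another chain, and a small subgroup, group IIIA, mainly hydrolyses it. Both are large families whose members differ in organ and cell type, and many respond to auxin, brassinosteroid, light or touch.

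The arrays differed in brightness by treatment. The 75th percentile of the processed signal, by which each array was scaled, lay between 3317.8 and 3761.2 on the 3B7N arrays, 2365.7 and 2920 on the 3BRO arrays, 2770.3 and 3471.6 on the 7NIT arrays, and 1767.8 and 2205.2 on the DMSO arrays, so that 3B7N and DMSO did not overlap. The part of this in the results was not tested. The share of probes well above background was 77.2% to 84.6%, and no probe was saturated. Values correlated at 0.979 to 0.993 within treatments and at 0.957 to 0.993 between them, over all genes. The arrays sat on 3 slides that do not balance the treatments. Slide A held the 3 DMSO arrays and 3BRO replicate 1, slide B held 3B7N replicates 1 and 2 with 3BRO replicates 2 and 3, and slide C held 3B7N replicate 3 with the 3 7NIT arrays. No slide holds both 3B7N and DMSO. Slides B and C were scanned on a different day from slide A. In whole seedlings, fewer cells of a type and less RNA per cell cannot be told apart.

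Seedlings on 3B7N had higher levels of the XTH genes XTH17, XTH18, XTH19 and XTH30 and lower levels of XTH5, XTH6, XTH21, XTH27 and XTH32 than seedlings on DMSO. Of 39 members, 4 were higher and 5 were lower than with DMSO at an adjusted p of at most 0.05 (limma, Benjamini-Hochberg over all genes), and all 9 were XTH genes, 9 of 23 in that family. Whether the families differ was not tested. With the slide as a block, 1 of these 9 calls, that of XTH6, was kept, and the values of that fit are given after those of the genes. The share of all genes called in this comparison was 15.7%, with 5.48% higher and 10.2% lower (1291 and 2399 genes). After quantile normalization 1791 genes were higher and 1912 lower, and among the members XTH24 joined the higher ones (log2 change 0.89, adjusted p = 0.0334, limma) and XTH21 left the lower ones (-1.05, 0.0577). All 16 expansins missed the threshold in this comparison, although 5 had an unadjusted p under 0.05. The median log2 change was -0.05 for the XTH members, -0.27 for the expansins and -0.02 for all genes. The median absolute log2 difference was 0.69 for the members and 0.31 for all genes. The members also scattered more between arrays of a treatment, with a median residual SD of 0.44, against 0.25 for all genes.

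XTH17, XTH18 and XTH19, close relatives in group II known from roots, carried the highest changes. XTH17 (AT1G65310) had log2 signals, relative to the array's 75th percentile, of -1.82, -2.08 and -0.87 with 3B7N, -5.05, -3.83 and -4.21 with 3BRO, -5.18, -4.04 and -4.90 with 7NIT, and -4.22, -4.32 and -4.19 with DMSO. Every 3B7N array lay far above the other 9, which overlapped each other. The log2 change against DMSO was 2.66 (SE 0.39, adjusted p = 0.00172, limma), or 6.30-fold.

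XTH18 (AT4G30280) read 4.95, 4.54 and 4.30 with 3B7N, 2.49, 2.93 and 2.36 with 3BRO, 2.75, 3.74 and 2.12 with 7NIT, and 2.98, 2.66 and 2.41 with DMSO, on the same scale. Again the 3B7N arrays stood above the rest, with 7NIT replicate 2 nearest to them. Its log2 change was 1.92 (SE 0.36, adjusted p = 0.00551, limma). XTH19 (AT4G30290) read -2.58, -2.65 and -2.70 with 3B7N, -5.45, -4.50 and -4.73 with 3BRO, -5.14, -4.33 and -4.86 with 7NIT, and -4.14, -4.61 and -4.35 with DMSO. Its 3B7N arrays lay close together and above all others, and the log2 change was 1.72 (SE 0.26, adjusted p = 0.002, limma). XTH18 and XTH19 are neighbours on chromosome 4, with XTH24 next to XTH18 and no gene between, in the gene order of the TAIR10.1 assembly. XTH17 lies on chromosome 1. XTH20, a further close relative, stood at -0.40 (95% interval -0.93 to 0.13), which did not pass. The probe sequences were not used here, so how far probes of these close copies bind each other's transcripts was not tested.

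XTH30 (AT1G32170), a group III gene, was the remaining member that rose. It read 4.93, 4.85 and 5.14 with 3B7N, 3.38, 4.02 and 4.08 with 3BRO, 3.59, 3.92 and 3.66 with 7NIT, and 3.61, 3.69 and 4.09 with DMSO. The 3B7N arrays did not overlap the others, and the log2 change was 1.17 (SE 0.21, adjusted p = 0.00403, limma).

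The 5 members that fell came from every XTH group. XTH6 (AT5G65730), of group I, had the lowest change, with 1.66, 1.3 and 2.27 with 3B7N, 2.53, 3.74 and 3.86 with 3BRO, 2.65, 2.75 and 2.69 with 7NIT, and 3.21, 3.54 and 3.82 with DMSO. The 7NIT arrays sat between the 3B7N and DMSO arrays without overlapping either. The log2 change with 3B7N was -1.78 (SE 0.34, adjusted p = 0.00652, limma).

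XTH32 (AT2G36870), one of the group IIIA enzymes, read -0.74, -1.27 and -0.64 with 3B7N, 0.38, -0.06 and -0.33 with 3BRO, 0.06, -0.23 and 0.17 with 7NIT, and 0.55, 0.15 and 0.29 with DMSO. All 3 3B7N arrays were below all others, with a log2 change of -1.21 (SE 0.22, adjusted p = 0.00501, limma). XTH31, the other group IIIA member, stood at -0.19 and did not pass. XTH27 (AT2G01850), listed as EXGT-A3 in the RefSeq table and known from vein development, read 4.45, 3.94 and 3.84 with 3B7N, 4.41, 4.70 and 5.12 with 3BRO, 4.55, 4.73 and 4.27 with 7NIT, and 4.83, 4.91 and 4.96 with DMSO. Its 3B7N arrays were below DMSO but reached into the 3BRO and 7NIT values, and the log2 change was -0.82 (SE 0.21, adjusted p = 0.0255, limma). A further probe of XTH27 gave -0.94.

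XTH5 (AT5G13870), of group I, read -2.05, -1.97 and -2.37 with 3B7N, -2.30, -2.01 and -1.69 with 3BRO, -1.52, -1.29 and -1.10 with 7NIT, and -1.25, -1.58 and -1.26 with DMSO. Here 3BRO overlapped 3B7N, while 7NIT overlapped DMSO, and the log2 change with 3B7N was -0.77 (SE 0.19, adjusted p = 0.0206, limma). XTH21 (AT2G18800), a group II gene that has been tied to primary root growth, read -4.18, -2.79 and -3.33 with 3B7N, -2.41, -3.32 and -2.81 with 3BRO, -2.15, -2.48 and -2.08 with 7NIT, and -2.07, -2.73 and -2.13 with DMSO. Its 3B7N arrays spread widely and replicate 2 almost touched DMSO replicate 2. The log2 change was -1.13 (SE 0.34, adjusted p = 0.0487, limma). XTH5, XTH21 and XTH27 lost their call without single arrays, XTH5 with -0.71 (adjusted p = 0.0741, limma) without DMSO replicate 1, -0.72 (0.0642) without DMSO replicate 3 and -0.65 (0.0659) without 3B7N replicate 3. XTH21 lost it without any 1 of 8 arrays (DMSO replicates 1 and 3, 3BRO replicate 3, the 3 7NIT arrays and 3B7N replicates 1 and 3), with log2 differences of -0.75 to -1.18 and an adjusted p of up to 0.141 in limma. XTH27 lost it without any 1 of 5 (the 3 DMSO arrays and 3B7N replicates 2 and 3), with -0.70 to -0.86 and up to 0.0781.

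**Figure D1:**
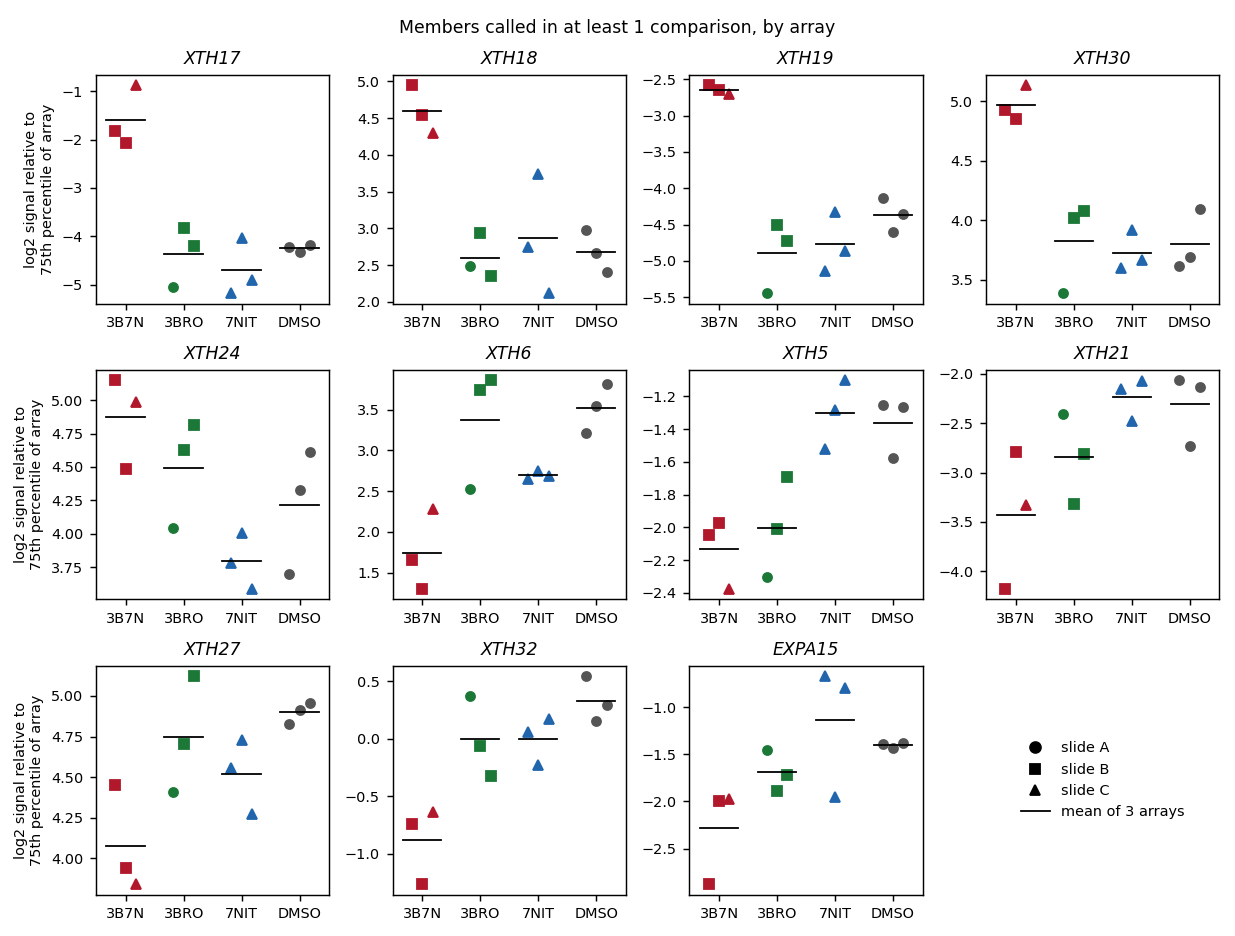
Log2 signal relative to the array's 75th percentile (y axis) for the 11 members called in at least 1 comparison, 1 panel a gene and 1 point an array, by treatment (x axis). Symbols give the slide and bars the mean of 3 arrays. XTH17, XTH18, XTH19 and XTH30 have all 3 3B7N arrays above the other 9, and XTH6 and XTH32 have them below.

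None of the 16 expansins passed against DMSO in limma, and 2 of them, by their brightest probes, differed by more than 1 log2 unit with 3B7N. EXPA1 (AT1G69530), known from guard cells, read 1.77, 2.62 and 3.29 with 3B7N, 3.55, 3.64 and 2.52 with 3BRO, 4.40, 2.64 and 3.93 with 7NIT, and 4.16, 3.89 and 3.55 with DMSO. The 3B7N arrays were all below DMSO, with replicate 1 lowest, and the log2 difference was -1.31 (95% interval -2.40 to -0.22, adjusted p = 0.0989, limma). A further EXPA1 probe gave -1.26. EXPA17 (AT4G01630), known from lateral root formation, read -4.23, -2.21 and -1.26 with 3B7N, -2.85, -1.55 and -1.37 with 3BRO, -2.33, -2.53 and -1.85 with 7NIT, and -1.46, -1.15 and -0.98 with DMSO. Its 3B7N values ranged over several log2 units and overlapped DMSO, and the difference was -1.37 (-2.76 to 0.02, adjusted p = 0.166, limma). By their brightest probes, the other 14 expansins lay between -0.88 and 0.69. A further probe gave -1.08 for EXPA5, against -0.81 with the brightest. For EXPA3, listed as EXP3, a further probe gave 0.95, against 0.28. The further probes of other expansins among these stayed within the range.

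Of the XTH members that did not pass, 3 also reached 1 log2 unit. XTH15 and XTH23, group II genes, had log2 differences of 1.47 each, with adjusted p of 0.19 and 0.1 in limma. XTH15 read 5.36, 3.02 and 3.24 with 3B7N and 1.84, 2.24 and 3.12 with DMSO, so its groups overlapped. XTH23, listed as XTR6, read 2.51, 1.86 and 0.78 with 3B7N and 0.58, 0.19 and -0.02 with DMSO, without overlap. XTH9, of group I, read 1.64, 1.16 and 0.51 with 3B7N and 1.77, 2.20 and 2.57 with DMSO, a difference of -1.08 (-2.01 to -0.15, adjusted p = 0.11, limma). XTH22, the touch gene TCH4, stood at -0.04 (-0.95 to 0.87). By group, group I had 2 of 6 lower with a median of -0.75, group II had 3 of 11 higher and 1 lower with a median of 0.66, group IIIA had 1 of 2 lower, and group IIIB had 1 higher and 1 lower of 4. The 3B7N and DMSO arrays did not overlap for 7 members above and 13 below, where 15.1% and 19.5% of all genes did so.

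**Figure D2:**
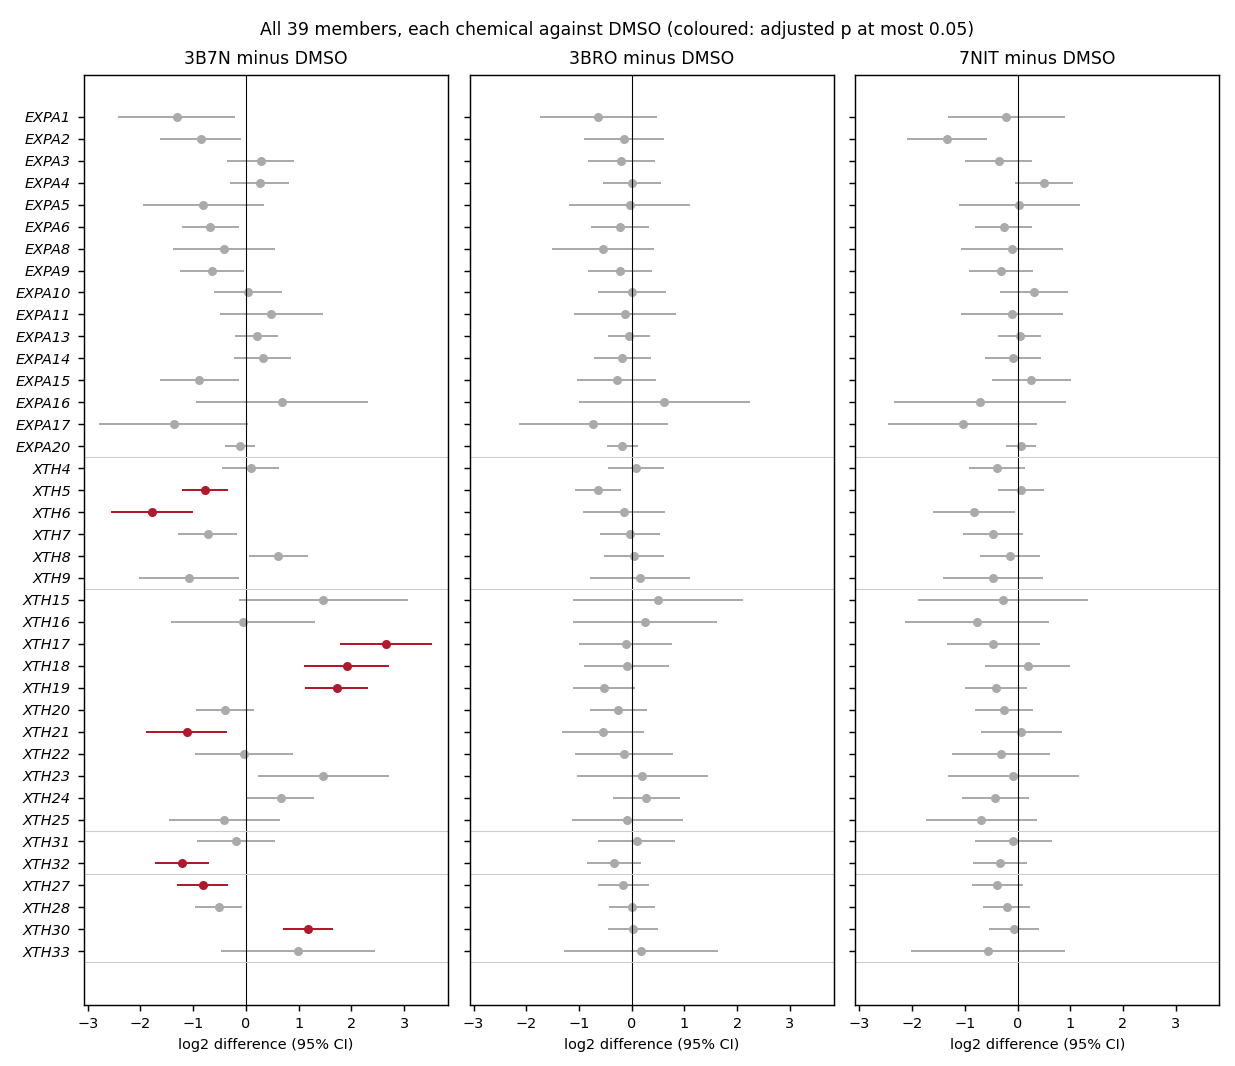
Log2 difference with its 95% confidence interval (x axis) of each of the 39 members (y axis, expansins at the top, then XTH groups I, II, IIIA and IIIB), for 3B7N, 3BRO and 7NIT against DMSO. Coloured points passed the adjusted threshold in limma, all 9 of them XTH genes in the 3B7N panel, and grey points did not.

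In the fit without a block, neither 3BRO nor 7NIT moved a member past the threshold against DMSO, and XTH6 stood at -0.83 for 7NIT (adjusted p = 0.617, limma). With the slide as a block XTH6 passed for 7NIT, at -2.89 (adjusted p = 0.0451, limma). No slide holds both 7NIT and DMSO, and the blocked value is linked through 3BRO replicate 1 and 3B7N replicate 3. Without the block, 0 of 39 members passed with 3BRO in limma, where 0.00425% of all genes did, and 1 member had an unadjusted p under 0.05. The 39 differences ranged from -0.73 to 0.62 with a median of -0.11, and XTH17 stood at -0.11 (95% interval -0.98 to 0.75). With 7NIT 0 of 39 passed in limma, where 0.0255% of all genes did, and 2 had an unadjusted p under 0.05. The 7NIT differences were negative for 30 of 39 members and for 20 of 23 XTH genes, and their median was -0.26, while the median of all genes was 0.03. The arrays did not overlap DMSO for 7 members below and 1 above, where 8.05% and 9.89% of all genes did so. EXPA2 (AT5G05290), an expansin of germinating seeds, had the lowest of them. It read -0.84, -0.96 and -1.32 with 7NIT and 0.51, 0.23 and 0.15 with DMSO, a difference of -1.34 (-2.08 to -0.60, adjusted p = 0.356, limma), and EXPA17 stood at -1.04 (-2.43 to 0.35, adjusted p = 0.699). The comparisons against DMSO share the 3 DMSO arrays.

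The calls of 3B7N against DMSO changed with the slide as a block. In that fit the only link between slide A and the other slides is 3BRO replicate 1. No member was then higher, and 3 were lower: XTH6 at -3.31 (adjusted p = 0.00833, limma), EXPA9 at -1.79 (0.0204) and XTH7 at -1.62 (0.0448). XTH17 stood at 1.27 (adjusted p = 0.215), XTH18 at 1.90 (0.192), XTH19 at 0.92 (0.254) and XTH30 at 0.43 (0.451), each in limma. The calls of XTH32 at -0.77 (0.274), XTH27 (EXGT-A3) at -1.21 (0.106), XTH5 at -1.10 (0.0895) and XTH21 at -0.52 (0.685) were lost as well. All 9 kept their direction. In that fit 3.28% of all genes were called, 146 higher and 625 lower. On slide A, the log2 difference of 3BRO replicate 1 from the mean of the DMSO arrays was -0.80 for XTH17, -0.20 for XTH18, -1.08 for XTH19, -0.41 for XTH30, -0.99 for XTH6, -0.94 for XTH5, -0.10 for XTH21, -0.49 for XTH27 and 0.04 for XTH32. It was negative for 34 of 39 members, with a median of -0.44, and for 54.5% of all genes, with a median of -0.04. Both sides of this difference sit on slide A, and whether it belongs to the treatment or to the single array cannot be told apart.

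**Figure D3:**
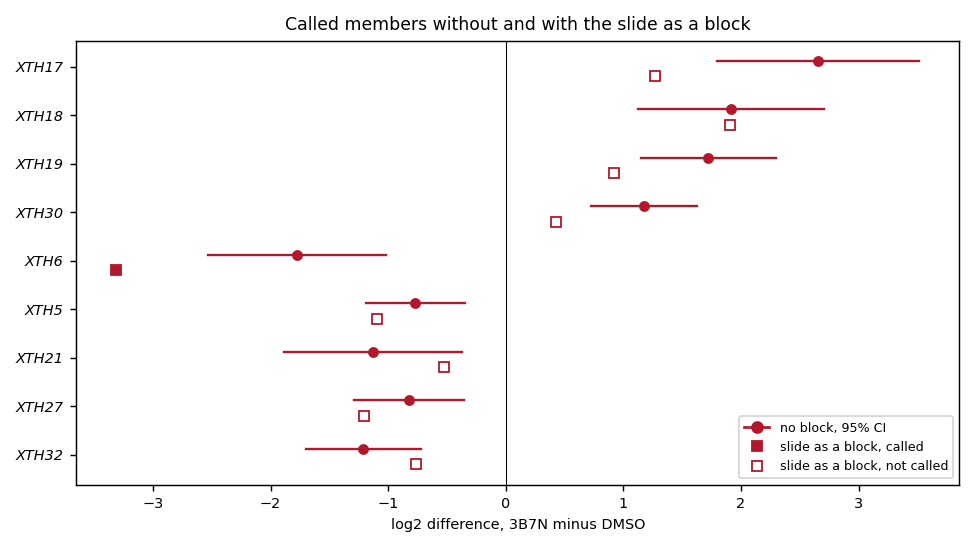
Log2 difference between 3B7N and DMSO (x axis) of the 9 called members (y axis). Circles with 95% confidence intervals come from the fit without a block and squares from the fit with the slide as a block, filled where the adjusted p is at most 0.05, which holds for XTH6.

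The 3 compounds were also compared with each other at the matched 2.5 µM. 3B7N shares slide B with 3BRO and slide C with 7NIT, while 7NIT and 3BRO share no slide. The bromo compound with a nitro group, 3B7N, differed from the one without it, 3BRO, in 6 of 39 members in limma, where 7.5% of all genes were called, 4 higher (2.72% of all genes) and 2 lower (4.78%). XTH17 was higher by 2.77 on the log2 scale (SE 0.39, adjusted p = 0.0037), XTH19 by 2.25 (SE 0.26, 0.00132), XTH18 by 2.0 (SE 0.36, 0.00929) and XTH30 by 1.14 (SE 0.20, 0.00961). XTH6 was lower, at -1.63 (SE 0.34, 0.0187), and so was XTH32, at -0.88 (SE 0.22, 0.0374). Within slide B, 2 arrays against 2, XTH17 differed by 2.07, XTH18 by 2.10, XTH19 by 2.0, XTH30 by 0.84, XTH6 by -2.32 and XTH32 by -0.81. With the slide as a block, XTH17 (adjusted p = 0.0159, limma), XTH18 (0.0395), XTH19 (0.0102), XTH30 (0.0453) and XTH6 (0.00339) passed and XTH32 (0.0861) did not. XTH6 lost its call without 3BRO replicate 2 (-1.45, 0.0704) or 3 (-1.39, 0.0639), or without 3B7N replicate 1 (-1.59, 0.0514) or 2 (-1.41, 0.0510). XTH32 lost it without any 1 of 7 arrays (DMSO replicate 2, 3BRO replicates 1 and 2, 7NIT replicates 1 and 3, and 3B7N replicates 1 and 2), with -0.69 to -0.95 and an adjusted p of up to 0.108.

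3B7N differed from 7NIT, which lacks the bromo group, in 9 of 39 members in limma, where 18.6% of all genes were called, 5 higher (6.06% of all genes) and 4 lower (12.5%). XTH17 was higher by 3.12 (SE 0.39, adjusted p = 0.000796), XTH19 by 2.13 (SE 0.26, 0.000728), XTH18 by 1.73 (SE 0.36, 0.00858), XTH30 by 1.25 (SE 0.21, 0.00273) and XTH24 by 1.08 (SE 0.28, 0.0225). XTH24 (AT4G30270), also known as MERI5, read 5.15, 4.49 and 4.99 with 3B7N, 4.04, 4.63 and 4.81 with 3BRO, 3.78, 4.01 and 3.59 with 7NIT, and 3.70, 4.33 and 4.61 with DMSO. All 3B7N values of XTH24 lay above 7NIT, but they overlapped 3BRO and DMSO.

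Of the members lower with 3B7N than with 7NIT, XTH21 stood at -1.20 (adjusted p = 0.0344, limma), EXPA15 at -1.15 (0.0363), XTH32 at -0.88 (0.0206) and XTH5 at -0.83 (0.0136). EXPA15 (AT2G03090) was the one expansin called in the fit without a block. Under other settings EXPA9 passed against DMSO with the slide or the scan day as a block, EXPA6 against DMSO with the replicate number as a block (-0.67, 0.0403), and EXPA16 against 7NIT with only these groups in the fit (1.4, 0.0384). EXPA15 read -2.88, -2.0 and -1.98 with 3B7N, -1.46, -1.89 and -1.72 with 3BRO, -0.67, -1.95 and -0.79 with 7NIT, and -1.39, -1.43 and -1.38 with DMSO. Its 7NIT replicate 2 almost reached the 3B7N values. Within slide C, where 3B7N replicate 3 stands alone against 3 7NIT arrays, XTH17 differed by 3.84, XTH19 by 2.07, XTH18 by 1.43, XTH30 by 1.41, XTH24 by 1.20, XTH5 by -1.07, XTH21 by -1.10, EXPA15 by -0.84 and XTH32 by -0.64. With the slide as a block, XTH17 (adjusted p = 0.00268, limma), XTH19 (0.00758), XTH30 (0.00951) and XTH5 (0.0259) passed, and XTH24 (0.0846), XTH18 (0.143), XTH32 (0.185), XTH21 (0.213) and EXPA15 (0.335) did not. Leaving out single arrays also ended calls in limma. Without 7NIT replicate 1 or 3, XTH24 (up to 0.0828), XTH32 (up to 0.0779), XTH21 (up to 0.106) and EXPA15 (up to 0.142) were lost, and XTH5 was lost without 7NIT replicate 3 (-0.73, 0.0597). XTH24, XTH21 and EXPA15 were lost without 3B7N replicate 1 as well, XTH24 and XTH21 without 3B7N replicate 3, XTH32 without 3B7N replicate 2, and EXPA15 without DMSO replicate 1 or 2.

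The 3 pairs of compounds were also adjusted together. The 6 calls against 3BRO remained, and 7 remained against 7NIT, with XTH21 (adjusted p = 0.0625, limma) and EXPA15 (0.0656) lost. For 7NIT against 3BRO, which carry 1 group each, this joint adjustment called 0 of 39 members in limma and 0.896% of all genes. With this pair adjusted on its own, 0 of 39 members and 0.0212% of all genes were called in limma, and 3 members had an unadjusted p under 0.05. The 7NIT minus 3BRO difference was -0.35 for XTH17 (95% interval -1.21 to 0.51), 0.28 for XTH18 (-0.51 to 1.07), 0.12 for XTH19 (-0.46 to 0.69) and -0.10 for XTH30 (-0.55 to 0.35). XTH5 had the highest value of this pair, 0.70 (0.28 to 1.12, adjusted p = 0.394). Below -1 stood 3 members that did not pass in limma, EXPA16 at -1.33 (-2.94 to 0.27, adjusted p = 0.594), EXPA2 at -1.19 (-1.94 to -0.45, 0.406) and XTH16 at -1.02 (-2.36 to 0.33, 0.626), and only EXPA2 of these had arrays that did not overlap. No slide holds both compounds, so none of these values can be read within a slide. In the fit with the slide as a block XTH17 stood at -1.77 (adjusted p = 0.204, limma), XTH18 at 0.67 (0.726), XTH19 at -0.07 (0.959) and XTH30 at -0.57 (0.445).

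**Figure D4:**
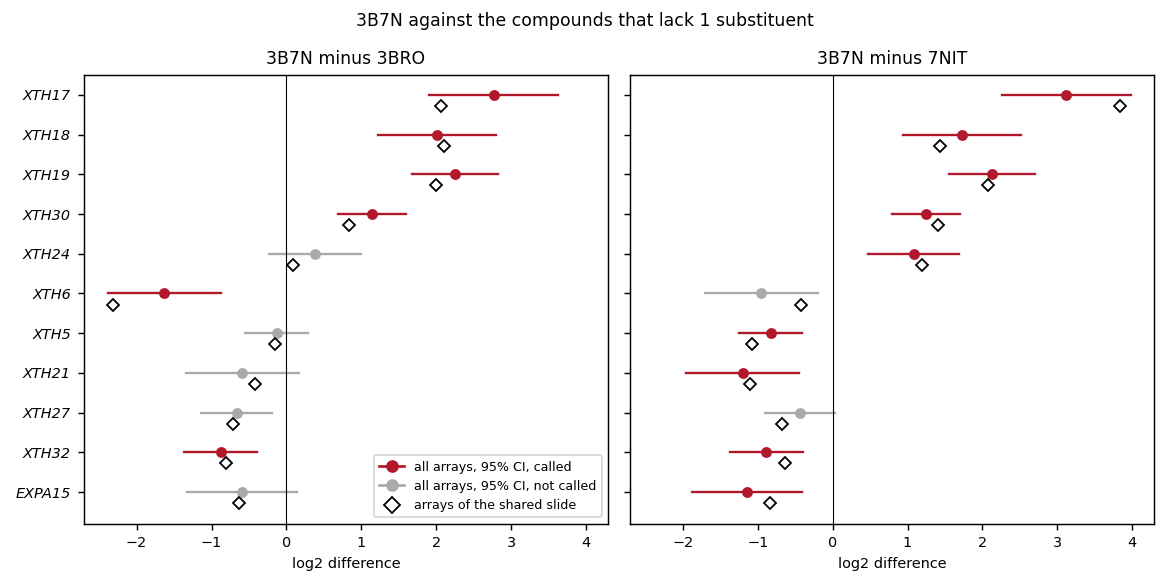
Log2 difference (x axis) of 3B7N minus 3BRO and of 3B7N minus 7NIT for the 11 members called in at least 1 comparison (y axis). Circles with 95% confidence intervals use all arrays, red where called, and diamonds use the arrays of the slide that holds both treatments. For XTH17, XTH18, XTH19 and XTH30 both kinds of value are positive in both panels.

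Whether the 2 single-group compounds together account for the 3B7N value on the log2 scale was tested as an interaction: the nitro group's difference beside bromo (3B7N minus 3BRO) less its difference alone (7NIT minus DMSO). Of 39 members, 2 passed in limma, where 0.659% of all genes did. XTH17 exceeded the sum by 3.23 on the log2 scale (SE 0.55, adjusted p = 0.0299) and XTH19 by 2.66 (SE 0.37, 0.0155). XTH18 stood at 1.82 (0.117) and XTH30 at 1.22 (0.0818), which did not pass. With the slide as a block XTH17 had 4.64 (0.0233) and XTH19 3.15 (0.0310). In that fit 3B7N minus 7NIT came from slide C, with 3B7N replicate 3 alone. The difference of 3BRO from DMSO came from slide A, with 3BRO replicate 1 alone. Both interaction values rest on these single arrays. After normexp background correction neither passed, with XTH17 at 2.16 (0.228) and XTH19 at 1.52 (0.347), and XTH17 lost its call without any 1 of 8 arrays (the 3 DMSO arrays, the 3 3BRO arrays and 7NIT replicates 1 and 3), with 2.89 to 3.50 and an adjusted p of up to 0.0904.

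The authors' deposited table of probes for 3B7N against DMSO lists 6 members, XTH17 with a fold of 6.34, XTH18 with 3.8, XTH6 with 3.42, XTH19 with 3.31, XTH32 with 2.31 and XTH30 with 2.27. These folds have no direction, and their corrected p-values in the authors' deposited table lie between 0.00515 and 0.0186. The authors' deposited table for 7NIT against DMSO lists 14 probes, of which 0 belong to a member.

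The 6 expansin and XTH genes of root hairs that the list leaves out all had negative log2 differences with 3B7N against DMSO, and 4 of 6 fell. All 6 differences were also negative with 3BRO (median -0.15) and with 7NIT (median -0.70), and 0 of 6 passed with either. The median with 3B7N was -1.43. XTH26 read -5.38, -4.48 and -3.83 with 3B7N and -2.08, -2.20 and -2.0 with DMSO, a change of -2.47 (adjusted p = 0.00789, limma). It read -3.28, -1.49 and -1.87 with 3BRO and -3.48, -2.81 and -2.20 with 7NIT. Its 3BRO replicate 1, on the slide of the DMSO arrays, lay below all DMSO arrays. EXPA18 fell by 1.74 (0.0125), XTH14 by 1.37 (0.0476) and XTH13 by 0.59 (0.0252), while EXPA7 at -1.48 (0.0627) and XTH12 at -1.37 (0.0597) did not pass. XTH14 is the immediate neighbour of XTH23 on chromosome 4, which stood at 1.47, and XTH13 is the neighbour of XTH25 on chromosome 5, which stood at -0.41.

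Markers of cell types moved in the same comparison. Of 6 root hair markers 4 were lower in limma, namely COW1 at -1.27 (adjusted p = 0.00147), MRH6 at -1.73 (0.0184), PRP3 at -1.81 (0.0359) and LRX1 at -0.87 (0.0308). The others, RHD6 at 0.22 and RSL4 with a negative difference, did not pass. The log2 of this list's summed signal ran from -0.63 to -0.40 with 3B7N, from -0.37 to 0.62 with 3BRO, from -0.48 to 0.33 with 7NIT and from 0.29 to 0.38 with DMSO. Of 2 root markers 1 was lower, PYK10 at -0.49 (0.0269), and the summed level ran from 6.23 to 6.45 with 3B7N, from 6.62 to 6.85 with 3BRO, from 6.45 to 6.61 with 7NIT and from 6.75 to 7.05 with DMSO. Of 5 green cotyledon markers 4 were lower, between -0.53 and -0.81, and the summed level ran from 9.12 to 9.38 with 3B7N, from 9.52 to 9.65 with 3BRO, from 9.33 to 9.59 with 7NIT and from 9.37 to 10.13 with DMSO. The 9.37 belongs to DMSO replicate 1, where RBCS1A had no value. It sums 4 genes and cannot be set beside the sums of 5. Of the 4 measured seed reserve markers 0 passed in limma and 0 had an unadjusted p under 0.05, with a summed level of -0.81 to 0.66 with 3B7N, -2.63 to -0.19 with 3BRO, -3.44 to 0.63 with 7NIT and -0.64 to 1.85 with DMSO. No measured marker was below background on all arrays of a treatment. Their part in the member values was not tested.

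Of 15 listed genes that build xyloglucan 1 rose with 3B7N against DMSO, CSLC4, a glucan synthase of the xyloglucan backbone listed as CSLC04. It read 3.65, 3.67 and 3.79 with 3B7N, 2.43, 2.47 and 2.85 with 3BRO, 2.47, 3.11 and 2.46 with 7NIT, and 2.39, 2.48 and 2.53 with DMSO. The 3B7N arrays lay above all others, and the log2 change was 1.24 (adjusted p = 0.00189, limma) against DMSO, 1.12 (0.00667) against 3BRO and 1.02 (0.00445) against 7NIT. With the slide as a block 0 of 15 passed against DMSO and 1 of 15 against each of 3BRO and 7NIT. The median of the list was 0.10. Of 3 xyloglucan trimming enzymes 0 passed against DMSO in limma and 1 had an unadjusted p under 0.05. That was BGAL10, a beta-galactosidase, at 0.89 (0.065), which passed against 7NIT at 0.98 (0.0421). Of the 15 measured other expansin and XTH loci, the expansin-like gene EXLB1 rose by 0.97 (0.0318) and XTH2 fell by 1.21 (0.0118). XTH2 was dim, at -7.23, -7.96 and -6.88 with 3B7N and -6.29, -5.78 and -6.38 with DMSO. It read -6.23, -5.80 and -5.97 with 3BRO and -7.24, -6.95 and -7.29 with 7NIT, so its 7NIT and 3B7N arrays overlapped. With 7NIT against DMSO it stood at -1.01 and did not pass.

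**Figure D5:**
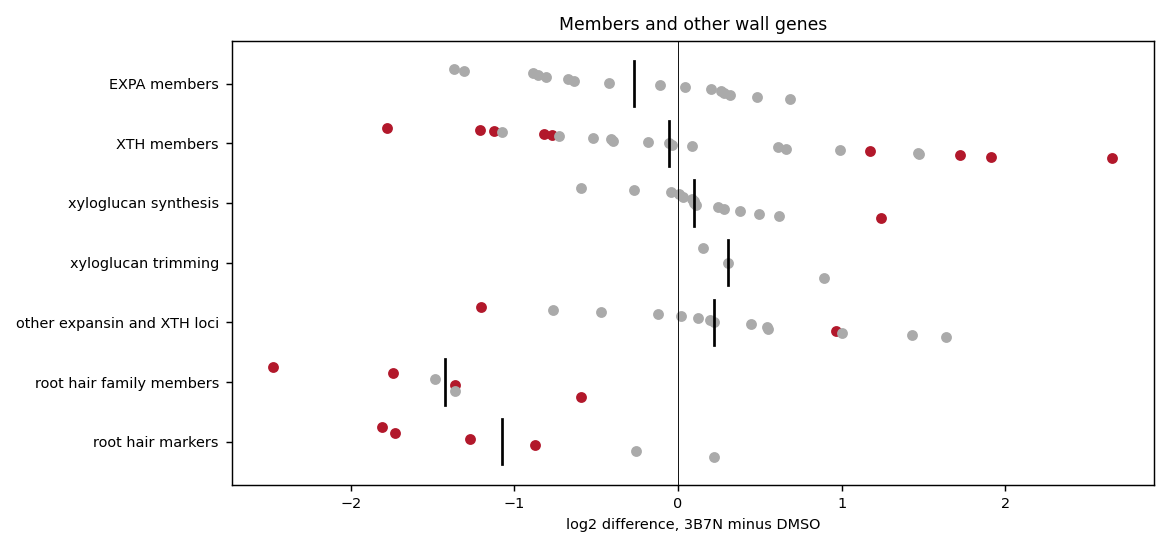
Log2 difference between 3B7N and DMSO (x axis) of the members and of other wall genes and root hair markers (rows), 1 point a gene, red where the adjusted p is at most 0.05, with the row's median as a bar. The 6 root hair family members all lie below 0, and the XTH members spread to both sides.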

How the data were processed

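Whole seedlings were profiled on 12 single-colour Agilent arrays. Each array's deposited file is the output of Agilent Feature Extraction (version 10.7.3.1 in the submitters' processing notes). Its processed-signal column, a linear intensity, had been corrected for background before it was deposited, per the file headers. The file of 3BRO replicate 2 holds values rounded to 3 significant digits. The deposited fold ratio and corrected p-value columns are the authors' own, and the folds carry no direction.

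Here signals were scaled by the 75th percentile of their array on the log2 scale. Control spots and spots flagged as outliers were left out. A probe was kept where 1 or more treatments had it well above background on all 3 arrays, if it was also measured on at least 2 arrays of each, which 35711 of 43603 probes were, and a locus was read from its brightest kept probe, which gave 23537 genes. Of the members, 12 had several probes. Symbols and gene order came from a TAIR10.1 RefSeq table. The array's build is older, so no coordinates are given. All arrays entered 1 fit in limma 3.58.1 (R 4.3.3, package data.table, version 1.17.8) with 7 comparisons, Benjamini-Hochberg adjustment over all genes within each, a threshold of 0.05 and 95% intervals. The fit was tested on simulated data with independent noise and no slide or scan-day effect, so that test does not cover the unbalanced slides. The number of arrays limits the precision.

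Alternatives were normexp background correction, quantile and median scaling, the dim-probe filter, slide, scan day and replicate number as blocks, fewer groups, the mean over probes, a 2-fold rule, adjustment over the compound pairs together and leaving out each array. Values on every array are given for members called in any comparison and for EXPA1, EXPA17, CSLC4, XTH26 and XTH2. Those on the compared arrays are given for XTH9, XTH15, XTH23 and EXPA2. Members at or beyond 1 log2 unit against DMSO that did not pass, and called genes of the other lists, are named with values. XTH20, XTH22, XTH31, XTH25, EXPA3, EXPA5, the members singled out between 7NIT and 3BRO and the genes that did not pass in the other lists were named after their values were seen. The members and lists were chosen with earlier results of these data known. No sequences were used here, and the planned search of promoters was not made.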

Additional observations from a re-analysis of the deposited data

Results flagged for a closer look

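In 2 members the change with 3B7N differed from the sum of the changes with 3BRO and 7NIT by the interaction test in limma. XTH17 exceeded the sum by 3.23 on the log2 scale (adjusted p = 0.0299), and all 3 of its 3B7N arrays lay above all other arrays. XTH19 exceeded it by 2.66 (adjusted p = 0.0155), and its 3B7N arrays also lay above all others. Over all genes 0.659% passed this test. After normexp background correction both calls were lost, with XTH17 at 2.16 (adjusted p = 0.228, limma) and XTH19 at 1.52 (0.347), and 0 of 23537 genes passed. XTH17 also lost its call without any 1 of 8 arrays, with an adjusted p of up to 0.0904.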

How the results depend on the processing

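The number of members higher with 3B7N than with DMSO was 4, and it was 0 with the slide and 0 with the scan day as a block. The number lower was 5, and it was 3 after normexp correction, 3 with the slide as a block, 2 with the scan day as a block, 3 with only the compared groups in the fit and 3 with a 2-fold rule. Over all genes 15.7% were called in this comparison, against 7.31% after normexp correction, 3.28% with the slide and 2.6% with the scan day as a block, and 8.07% with only the compared groups. With the slide as a block 1 member (XTH6, -2.89, adjusted p = 0.0451, limma) was called for 7NIT against DMSO and 4 for 3B7N against 7NIT, in place of 0 and 9. No slide holds both 7NIT and DMSO, and without a block XTH6 stood at -0.83 for 7NIT against DMSO (adjusted p = 0.617, limma). With only the compared groups 3 were called for 3B7N against 3BRO, in place of 6. The interaction had 0 calls after normexp correction (0 of 23537 genes) and 1 without the dim-probe filter, in place of 2. Leaving out each array in turn gave 4 to 5 members higher and 2 to 7 lower with 3B7N than with DMSO, 0 to 0 for 3BRO, 0 to 0 for 7NIT, 4 to 7 for 3B7N against 3BRO, 4 to 11 for 3B7N against 7NIT, 0 to 0 for 7NIT against 3BRO and 1 to 3 for the interaction. The number lower was 2 without DMSO replicate 1 and 2 without DMSO replicate 3, and 3B7N against 7NIT had 5 without 7NIT replicate 1 and 4 without 7NIT replicate 3. None of the 26 named calls changed direction under these alternatives. Members that did not pass could change it. With 3B7N against DMSO, XTH22 stood at -0.04, and at 0.03 without DMSO replicate 1. The slide as a random block, added after seeing the data, lost 1 of 26 named calls (XTH21). Its estimated correlation within slides was 0.025, so that fit stays close to the fit without a block. The slide as a fixed block lost 14 of 26. The cause of these moves was not tested. Fits with fewer groups or arrays also hold fewer samples. Normexp used the median spot signal in place of the mean, and it moved the median log2 difference of all genes between 3B7N and DMSO to -0.15, in place of -0.02. The fit with only the compared groups was not run for the interaction, which needs all 4.

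With the replicate number as a block, 4 members were higher and 5 lower with 3B7N than with DMSO, with XTH21 lost (adjusted p = 0.0659, limma) and EXPA6 added. The same block gave 6 against 3BRO, 11 against 7NIT and 2 for the interaction. Of 18 same-numbered pairs of arrays 11 had deviations that correlated above 0.1, with a range of -0.159 to 0.443. Of 36 differently numbered pairs 6 did so, with a range of -0.384 to 0.334. Among the 12 arrays 9 correlated best with their own number. This is a hint from the data and not the design, so the numbers were not taken to pair samples.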
